A study of Mus musculus with 16 samples.

Results

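The genes described here encode fusion SNAREs (Snap25, Stx1a and Vamp2) and membrane or membrane-attached proteins of secretory vesicles (Syp, Sv2a, Sv2c and Syn1). They were chosen by symbol: every probe annotated to one of these 7 genes on Illumina mouse bead arrays was taken, which gave 8 probes of 25697. Those 8 probes cover 6 genes, with a pair of probes each for Sv2a and Syn1, and no probe carries the symbol Sv2c. Total RNA came from pituitary glands of mouse embryos at embryonic day 17.5, on a mixed C57/BL6 and 129Ola background. The arrays comprise 6 samples labelled Insm1 mutant with the genotype Insm1 -/-, and 10 labelled Insm1 control with the genotype Insm1 +/-, so every animal carries at least 1 mutant allele and no wild type was compared. The labels describe neither the allele's structure nor the number of glands behind each RNA sample. The p-values therefore cover only the variation among these 16 samples, which may in part be technical.

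Hormone-secreting cells and neurons release their cargo by the same fusion step. Vamp2 (synaptobrevin) sits in the vesicle membrane, syntaxin 1A and SNAP25 sit in the plasma membrane, and the zippering of these SNAREs into a tight bundle drives the membranes together. Synaptophysin (Syp) is an abundant vesicle protein that binds Vamp2, the SV2 proteins are transporter-like vesicle glycoproteins that bind synaptotagmin, and synapsin I (Syn1) is a phosphoprotein that tethers vesicles to each other and to actin. In endocrine cells Syp is best known from small synaptic-like vesicles, and it is a standard histological marker of neuroendocrine tissue. Insm1 encodes a zinc finger protein that regulates transcription while neuroendocrine cells differentiate, and the comparison asks which transcripts differ in the gland without it.

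The bases just upstream of the annotated transcript start are shown for the 4 genes that have both a tested probe and an entry in the RefSeq promoter table (GRCm38.p6). They were read from chr5:135023232-135023481 (plus strand) for Stx1a, chr3:96180977-96181226 (plus strand) for Sv2a, chrX:20920919-20921168 (minus strand) for Syn1 and chrX:7638330-7638579 (plus strand) for Syp. Each is 250 bases long, runs 5′ to 3′ and ends at the base before the start. Capitals mark matches, on either strand, to any of the motifs searched.
Stx1a: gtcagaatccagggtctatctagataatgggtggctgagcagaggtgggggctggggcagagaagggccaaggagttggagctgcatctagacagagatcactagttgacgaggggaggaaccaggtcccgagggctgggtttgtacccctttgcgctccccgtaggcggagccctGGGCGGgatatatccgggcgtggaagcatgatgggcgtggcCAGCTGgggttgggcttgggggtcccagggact
Sv2a: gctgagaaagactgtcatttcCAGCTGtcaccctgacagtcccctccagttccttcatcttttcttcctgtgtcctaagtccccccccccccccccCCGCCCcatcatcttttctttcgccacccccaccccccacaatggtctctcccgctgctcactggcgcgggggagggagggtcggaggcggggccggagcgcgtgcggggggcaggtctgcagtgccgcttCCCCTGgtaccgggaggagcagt
Syn1: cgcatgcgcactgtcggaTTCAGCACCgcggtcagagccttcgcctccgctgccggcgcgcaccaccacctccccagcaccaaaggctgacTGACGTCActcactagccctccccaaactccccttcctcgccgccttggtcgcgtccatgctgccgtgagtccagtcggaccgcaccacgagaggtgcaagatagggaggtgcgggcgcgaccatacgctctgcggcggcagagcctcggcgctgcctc
Syp: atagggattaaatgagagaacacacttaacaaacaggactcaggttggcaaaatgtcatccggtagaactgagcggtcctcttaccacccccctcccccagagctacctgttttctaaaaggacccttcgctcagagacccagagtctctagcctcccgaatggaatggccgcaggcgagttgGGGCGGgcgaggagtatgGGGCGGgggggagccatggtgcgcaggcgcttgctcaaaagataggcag

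The motifs searched were the GC box GGGCGG, the RE1 parts TTCAGCACC and GGACAGC, the cyclic AMP response element TGACGTCA, the E-boxes CAGCTG and CAGATG, and CAGGGG, a stretch of the site described for Insm1. No match overlapped another. Syn1 held TTCAGCACC, the left part of the RE1 element through which the repressor REST silences neuronal genes, from 232 to 224 bases before the start. Of all 32851 upstream windows of this length, 0.301% held it. Syn1 also held TGACGTCA, the element bound by CREB factors, from 159 to 152 bases before the start, which 1.55% of the windows held. The GC box stood in Syp at 67 and at 49 bases before the start, in Stx1a at 74 and in Sv2a at 154, and was found in 32.7% of all windows. The E-box CAGCTG occurred in Stx1a and Sv2a and in 13% of the windows. CAGGGG occurred in Sv2a, 23 bases before the start, against 21.2% of all windows. CAGATG and GGACAGC occurred in none of these 4 windows, and in 14.4% and 5.28% of all windows. These matches describe the letters of the windows, and no binding was measured.

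Depth was similar in both groups: 12928 to 13671 probes per array lay above background in mutants and 12892 to 14156 in controls (detection p under 0.01). The Insm1 probe read higher, against the direction of the mutant label: its log2 level spanned 11.44 to 12.04 in mutants, against 11.17 to 11.66 in controls, a change of 0.36 (SE 0.10, limma adjusted p = 0.0135). Its position within the gene and the altered stretch are not stated in the labels, so its level is no check on the genotypes. On the first principal component (44.8% of the variance) mutants lay between -37.54 and -24.74 and 9 controls between 18.21 and 26.86, while control 10 stood apart at -2.42. All 8 transcripts of a list of pituitary hormones and chromogranins (Gh, Prl, Tshb, Cga, Pomc, Lhb, Chga and Chgb) were above background on all 10 controls, so the defining markers of the labelled tissue were present. Lhb was above background on 0 of the 6 mutants and Prl on 2.

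Every tested gene of the group was lower in mutants. Of the 7 probes (5 genes) that could be tested, 7 were called lower at an adjusted p under 0.05 in a limma fit across 13813 probes, where 12.9% of all probes were called lower and 27.8% in either direction. By gene, 5 of 5 were lower. Over the 9682 genes tested the background was 1351 genes lower, a share of 14.0%, with 15.9% higher and 29.9% in either direction. The vesicle proteins Syp, Sv2a and Syn1 fell by more than 3-fold and the SNAREs Stx1a and Vamp2 by less, while Snap25 could not be measured. Only 1.27% of all probes were called lower and at least 3-fold lower. In whole glands, fewer cells of a type and less RNA per cell cannot be told apart.

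Syp, on probe ILMN_2630182, had log2 levels with a lowest, median and highest value of 9.75, 9.97 and 10.88 in mutants, against 11.30, 11.88 and 12.27 in controls. The groups did not overlap: the highest mutant, mutant 5, lay 0.42 below the lowest control, control 10. On all tested probes together, 4.79% had every mutant below every control. Mutants averaged 10.09 ± 0.40 (SD, n = 6), against 11.88 ± 0.27 in controls (SD, n = 10). The change, always mutant minus control on the log2 scale, was -1.79 (SE 0.16, limma adjusted p = 1.25e-07), a level 3.45-fold lower in mutants (95% interval 2.75 to 4.33). Before normalisation the raw intensity spanned 840 to 2150 in mutants, against 2531 to 5018 in controls.

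Sv2a was read by a pair of probes that agreed closely. On ILMN_1213495 the lowest, median and highest log2 levels were 8.50, 8.71 and 8.93 in mutants, against 9.87, 10.40 and 10.87 in controls. On ILMN_2702887 they were 8.47, 8.77 and 8.89 in mutants, against 9.66, 10.45 and 10.82 in controls. Neither probe showed overlap, and of the 7 tested probes these had the widest gaps between the highest mutant and the lowest control, at 0.94 and 0.77. Mutants were also tightly grouped, with SDs of 0.15 on both probes (n = 6), against 0.32 on both in controls (n = 10). The changes were -1.71 (SE 0.13, limma adjusted p = 2.64e-08) and -1.68 (SE 0.13, limma adjusted p = 3.97e-08), or 3.28-fold and 3.21-fold lower in mutants. Centred on their own means, the readings of both probes differed by at most 0.27 on any array.

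Syn1 fell by a like amount with more spread. On ILMN_1235133 the lowest, median and highest log2 levels were 7.69, 7.94 and 9.02 in mutants, against 9.09, 9.89 and 10.47 in controls. On ILMN_2762083 they were 6.94, 7.27 and 8.25 in mutants, against 8.33, 9.26 and 9.60 in controls. The groups did not overlap on either probe, but the edges almost met: mutant 5 lay only 0.068 and 0.082 below control 10. The changes were -1.77 (SE 0.20, limma adjusted p = 2.09e-06) and -1.79 (SE 0.20, limma adjusted p = 1.78e-06), or 3.41-fold and 3.46-fold lower in mutants.

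Stx1a, the plasma membrane syntaxin, fell by less. Its log2 levels on ILMN_2700608 had a lowest, median and highest value of 9.76, 10.10 and 10.30 in mutants, against 10.49, 10.81 and 11.08 in controls. The groups did not overlap, with a gap of 0.19 between mutant 5 and control 10. Mutants averaged 10.04 ± 0.21 (SD, n = 6), against 10.80 ± 0.17 in controls (SD, n = 10), a change of -0.75 (SE 0.097, limma adjusted p = 1.17e-05) or 1.68-fold lower in mutants (95% interval 1.46 to 1.94).

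Vamp2, the vesicle SNARE, moved least. On ILMN_2424912 the lowest, median and highest log2 levels were 9.98, 10.10 and 10.18 in mutants, against 10.15, 10.48 and 10.75 in controls. Here the groups met: mutant 6 (10.18) read above control 10 (10.15), while the next lowest control read 10.36. Mutants averaged 10.08 ± 0.085 (SD, n = 6), against 10.47 ± 0.16 in controls (SD, n = 10), a change of -0.39 (SE 0.077, limma adjusted p = 0.00102) or 1.31-fold lower in mutants (95% interval 1.17 to 1.46).

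Snap25, the remaining plasma membrane SNARE, gave no usable reading on these arrays. Its probe, ILMN_2741123, cleared background on 0 mutant arrays of 6 and 0 control arrays of 10, with detection p-values of 0.414 to 0.901 in mutants, against 0.363 to 0.825 in controls. Raw intensities spanned 59.9 to 81.3 in mutants, against 66.0 to 77.0 in controls. With both groups not well above background, no fold is given, and the reading says only that this probe detected nothing. Sv2c, with no probe under its symbol, is not analysed here.

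**Figure D1:**
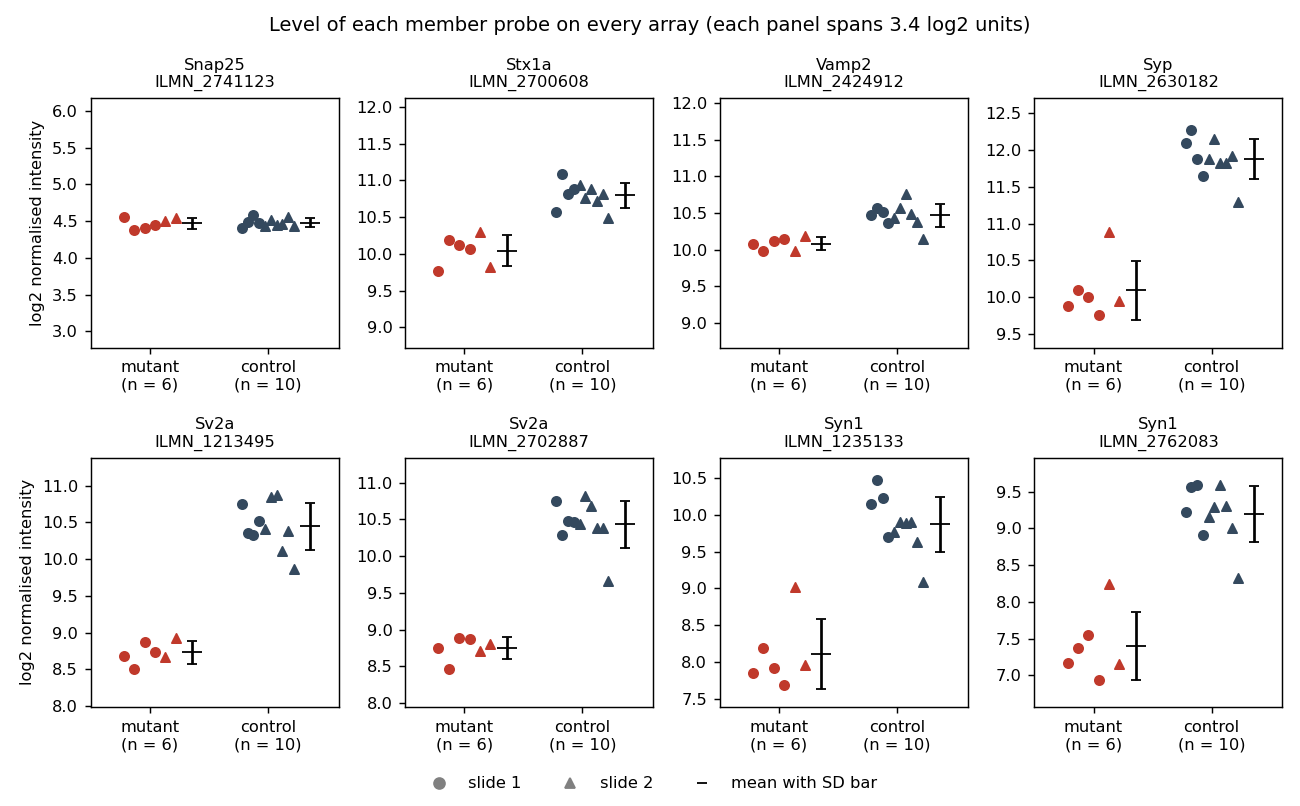
Log2 normalised intensity of the 8 member probes on every array, mutants at left and controls at right in each panel. Points are arrays, with circles for slide 1 and triangles for slide 2, and bars give the mean and SD. The slide was inferred from the number that opens each sample name. Mutants lie below controls on 6 probes, meet control 10 on Vamp2, and both groups sit at the background level near 4.5 on Snap25.

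The sizes of these falls differed between genes, and Syp, Sv2a and Syn1 fell further than Stx1a and Vamp2. Differences between genes were taken within each array, and a 95% interval was computed for each of the 10 possible pairs of the 5 tested genes, with no adjustment over the pairs. Each gene was read by the probe that represents it, ILMN_1213495 for Sv2a and ILMN_1235133 for Syn1. How strongly each probe responds to its transcript was not measured, so these are differences between probe readings. The falls of Syp and Stx1a differed by -1.04 (95% interval -1.33 to -0.74), and those of Syp and Vamp2 by -1.40 (-1.76 to -1.04). Sv2a fell further than Stx1a by -0.96 (-1.31 to -0.62), and Syn1 further than Stx1a by -1.02 (-1.40 to -0.64). Sv2a against Vamp2 gave -1.33 (-1.55 to -1.11) and Syn1 against Vamp2 -1.38 (-1.83 to -0.94). Between the SNAREs, Stx1a fell further than Vamp2 by -0.37 (-0.60 to -0.14). These 7 intervals leave out 0. Among Syp, Sv2a and Syn1 the intervals hold 0. The difference was -0.018 (-0.21 to 0.18) for Syp against Syn1, -0.073 (-0.47 to 0.32) for Syp against Sv2a and 0.055 (-0.44 to 0.55) for Sv2a against Syn1. The narrowest of those 3 intervals is that of Syp and Syn1, and both Sv2a intervals are wider.

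Some arrays stood apart within their group. Mutant 5 was the highest mutant on 4 of the 7 tested probes, those of Syp, Syn1 and Stx1a. In mutant 5 Syp read 10.88 against 9.93 ± 0.13 (SD, n = 5) in the other mutants, and Syn1 on ILMN_1235133 read 9.02 against 7.92 ± 0.18 (SD, n = 5). Sv2a did not share this: on ILMN_1213495 mutant 5 read 8.67 against 8.74 ± 0.17 (SD, n = 5) in the other mutants, and Vamp2 read 9.98 against 10.10 ± 0.077 (SD, n = 5). Control 10 was the lowest control on all 7 tested probes. Its Syp level was 11.30 against 11.94 ± 0.19 (SD, n = 9) in the other controls, its Sv2a level on ILMN_2702887 was 9.66 against 10.52 ± 0.18 (SD, n = 9), and its Syn1 level on ILMN_1235133 was 9.09 against 9.96 ± 0.27 (SD, n = 9). Without control 10 all 7 probes were again called lower, where 13.3% of all probes were, with changes from -1.89 (Syn1) to -0.42 (Vamp2).

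**Figure D2:**
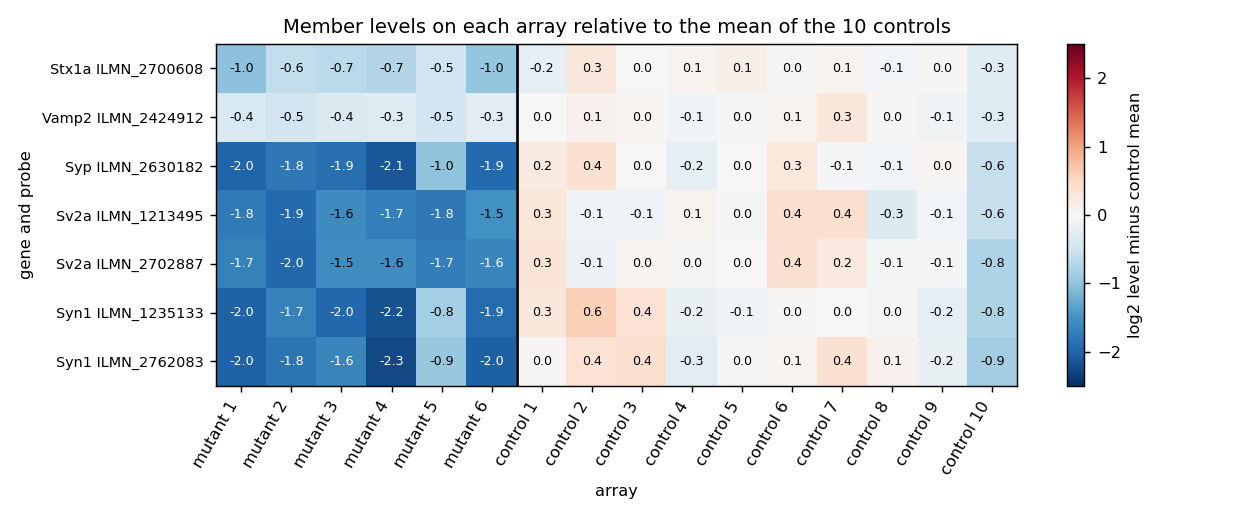
Log2 level of each tested member probe (rows) on each array (columns, mutants then controls) minus the mean of the 10 controls, shown by colour. Mutant 5 is the palest mutant for Syp and Syn1 but not for Sv2a, and control 10 is below the control mean on all 7 probes.

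The sample names open with 1 of 2 numbers, read here as 2 slides, although no label or file header calls them slides. By this reading, 4 mutants and 4 controls lay on slide 1 and 2 mutants and 6 controls on slide 2. Mutant 5 and control 10 were both on slide 2. The Syp change was -2.04 on slide 1 (limma adjusted p = 7.98e-06) and -1.40 on slide 2 (limma adjusted p = 0.0135). The Syn1 change on ILMN_1235133 was -2.23 on slide 1 (limma adjusted p = 1.30e-05) and -1.21 on slide 2 (limma adjusted p = 0.0355), and on ILMN_2762083 it was -2.07 and -1.41. Sv2a on ILMN_1213495 changed by -1.79 on slide 1 and -1.62 on slide 2, and Stx1a by -0.80 and -0.71. Vamp2 changed by -0.40 on slide 1 (limma adjusted p = 0.0161) and by -0.38 on slide 2, where it missed the threshold (limma adjusted p = 0.175). A limma fit with a genotype by slide term called 0 of the 13813 probes, and for Syn1 on ILMN_1235133 the term was 1.02 (unadjusted p = 0.0101, adjusted p = 0.999). Over all probes, 9.22% were called lower on slide 1 and 4.49% on slide 2. With the slide as a block all 7 probes were called lower, as were 13.4% of all probes.

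Related genes were read from lists of other SNAREs and vesicle proteins, and their counts stand beside 14.0% of all genes called lower and 15.9% called higher. Of 13 other SNAREs of the plasma membrane and of vesicles that were tested, 3 fell, 2 rose and 8 were not called, shares near that background, with a median change of -0.035 against 0.033 over all genes tested. Vamp4, a SNARE of the trans-Golgi network and of maturing granules, averaged 10.92 ± 0.11 in mutants and 11.56 ± 0.18 in controls (SD, n = 6 and 10), a change of -0.63 (SE 0.084, limma adjusted p = 1.63e-05). Vamp3 (cellubrevin), the widely expressed relative of Vamp2, averaged 11.54 ± 0.033 in mutants and 11.85 ± 0.11 in controls (SD, n = 6 and 10), a change of -0.31 (limma adjusted p = 0.000849). Stx3, named here because it completes the count, changed by -0.27, and its other tested probe by -0.36, which was not called. The SNAREs that rose were Vamp8 (endobrevin), by 0.36 (limma adjusted p = 0.00795), and Vamp1, by 0.29 (limma adjusted p = 0.0305). The other tested probe of Vamp8 changed by 0.27 and was not called. Vamp1 was not called under cyclic loess (0.23, adjusted p = 0.0883) or without mutant 5 (0.28, adjusted p = 0.0551). Snap23, the widely expressed relative of Snap25 and named after its value was seen, averaged 10.93 ± 0.15 in mutants and 10.79 ± 0.15 in controls (SD, n = 6 and 10), a change of 0.14 that was not called (95% interval -0.038 to 0.31).

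Of the SNAREs that act between the endoplasmic reticulum, Golgi and endosomes, 18 were tested. By 1 probe per gene, 2 fell, 1 rose and 15 were not called, with a median change of -0.072 and a range from -0.34 to 0.27. Another probe of Vti1a was called higher (0.19), and the lowest probe of Stx8 changed by -0.57 and was not called. The other tested probe of Stx6, counted as higher, changed by 0.19 and was not called. Gosr1, a Golgi SNARE, changed by -0.34 (SE 0.087, limma adjusted p = 0.00643) and Stx12, an endosomal syntaxin, by -0.25 (limma adjusted p = 0.0284), while Stx6, of the trans-Golgi network, rose by 0.27 (limma adjusted p = 0.0215). Stx6 was not called under median scaling (limma adjusted p = 0.0843), nor Stx12 without mutant 5 (limma adjusted p = 0.0630), and within either slide 0 of the 18 were called.

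Of 9 tested genes that regulate SNAREs, 5 fell and 2 rose, with a median change of -0.18. Doc2b, a calcium sensor that binds syntaxin and Munc13, had the largest change: 5.98 ± 0.40 in mutants and 7.91 ± 0.20 in controls (SD, n = 6 and 10), or -1.93 (SE 0.14, limma adjusted p = 1.04e-08). Its probe cleared background on 5 mutant arrays of 6. The groups did not overlap. Nsf, the ATPase that takes spent SNARE bundles apart, changed by -0.49 (limma adjusted p = 0.000148), and Napb, the beta form of its adaptor SNAP, by -0.43 (limma adjusted p = 0.000705). Snapin, a binding partner of SNAP25, rose by 0.31 (limma adjusted p = 0.00180) and the syntaxin-binding protein gene Stxbp2 by 0.25 (limma adjusted p = 0.0159). The other genes that fell were Napg, by -0.23 (limma adjusted p = 0.0317) and not called without mutant 5, and Stxbp4, by -0.18 (limma adjusted p = 0.0441) and not called under median scaling, with the slide as a block or without control 10. The other tested probe of Stxbp4 changed by -0.14 and was not called.

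Among other vesicle proteins, 18 were tested, of which 7 fell, 1 rose and 10 were not called, with a median change of -0.25. Svop, a transporter-like protein related to SV2, averaged 7.91 ± 0.54 in mutants and 10.27 ± 0.42 in controls (SD, n = 6 and 10), a change of -2.35 (SE 0.22, limma adjusted p = 2.29e-07). Gamma-synuclein, Sncg, averaged 5.91 ± 0.23 in mutants and 7.68 ± 0.51 in controls (SD, n = 6 and 10), a change of -1.78 (SE 0.20, limma adjusted p = 3.26e-06). Syngr3, a synaptogyrin and so a relative of Syp, changed by -1.39 (SE 0.21, limma adjusted p = 5.69e-05). None of these 3 showed overlap between the groups. Scamp2, a carrier membrane protein of post-Golgi vesicles, rose by 0.18 (limma adjusted p = 0.0401), a call lost under cyclic loess (adjusted p = 0.0600), under median scaling (adjusted p = 0.191), without control 10 (adjusted p = 0.0529) and without mutant 5 (adjusted p = 0.0866). Of the closest relatives of the members, named after their values were seen, Syn2 changed by -0.76 (limma adjusted p = 0.000109), Sv2b by -0.35, which was not called (95% interval -0.71 to 0.018), and the Syp relative Sypl by 0.20, also not called (-0.071 to 0.47). Syngr1, like Syngr3 a synaptogyrin, changed by -0.30 (limma adjusted p = 0.0411). Its 4 tested probes changed by -1.21 to -0.21, and 3 of them were called lower. Syngr2 and Sypl2 were not called. Without control 10, 7 of the list fell and 0 rose.

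**Figure D3:**
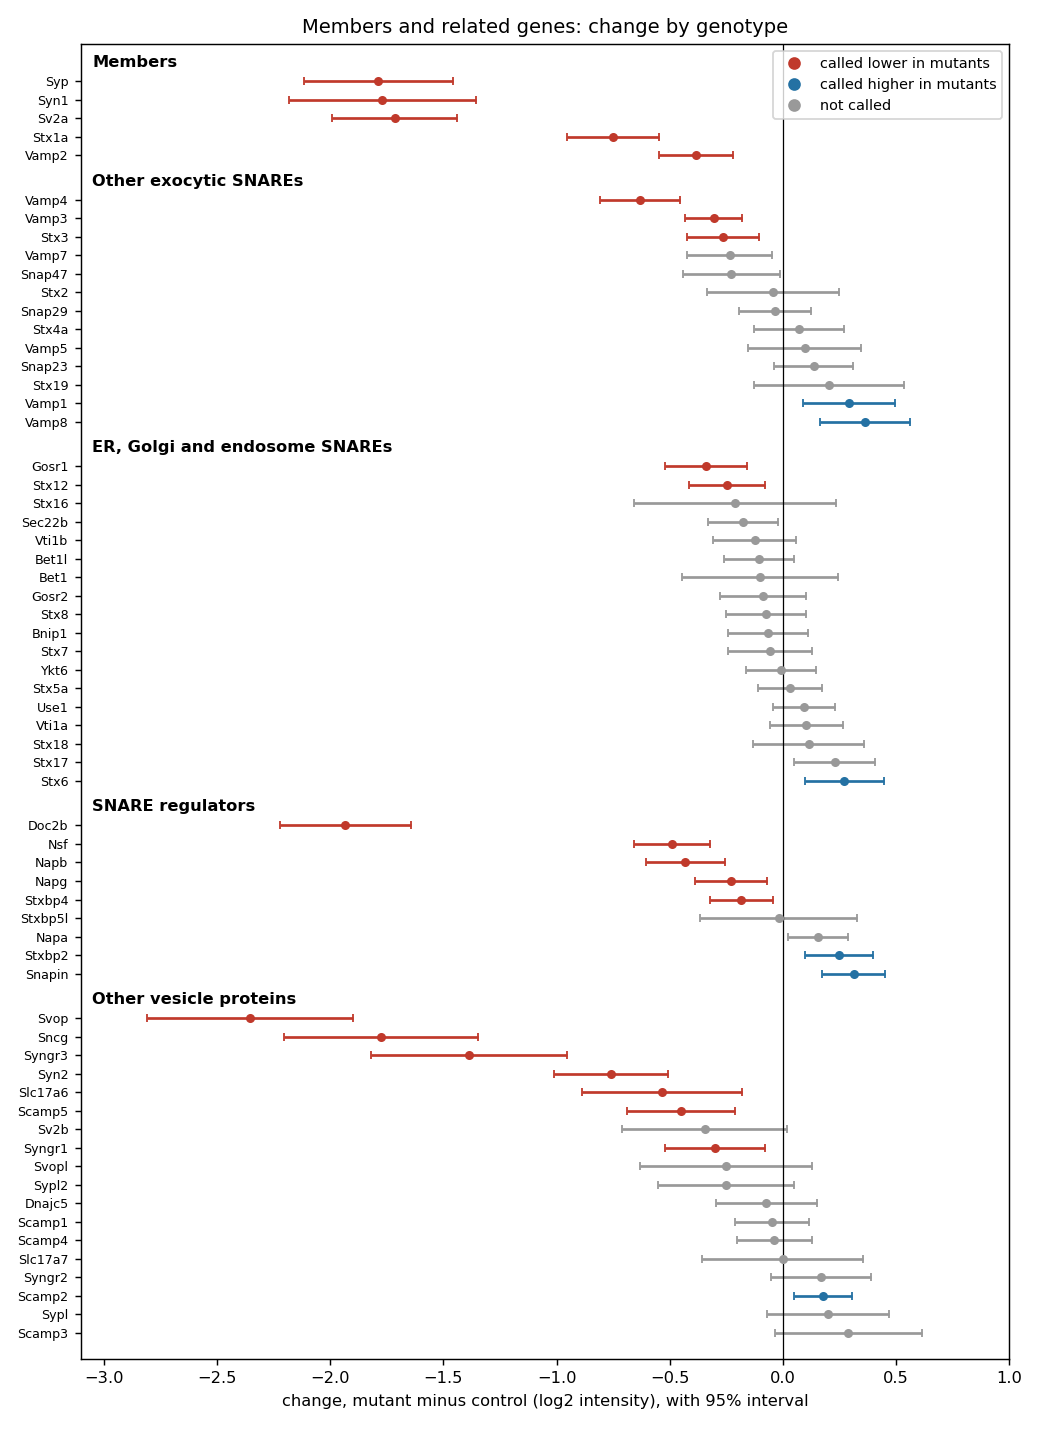
Change in log2 intensity, mutant minus control, with 95% intervals for the 5 tested members and the tested genes of 4 related lists; red marks genes called lower in mutants, blue higher, grey not called. Syp, Syn1 and Sv2a have the lowest values of the members, beside Svop, Sncg and Doc2b, while most other SNAREs lie near 0.

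Lists of cell type markers were read on the same arrays, by 1 probe per gene. Their counts stand beside 14.0% of all genes called lower and 15.9% called higher. All 8 hormone and chromogranin transcripts fell, and their summed normalised intensity spanned 7730 to 14478 in mutants, against 75969 to 110251 in controls, with the highest mutant sum in mutant 5 and the lowest control sum in control 10. Of 9 neuron markers tested, 4 fell and 0 rose (median -0.36), with sums of 3739 to 4842 in mutants, against 4804 to 6573 in controls. Ina (internexin), Gap43 and Elavl3 changed by -1.28, -0.91 and -0.98, with the Ina probe above background on only 3 mutant arrays of 6, whereas Dcx, Rbfox3, Nefm, Map2 and Stmn2 were not called, and Tubb3, Nefl and Prph were above background on 0 arrays. Of the hypothalamic hormones Avp and Oxt neither could be tested. All 6 skeletal muscle markers tested rose, with sums of 14403 to 21756 in mutants, against 958 to 10609 in controls, the highest control being control 10. In mutants Myl1 averaged 13.84 (log2) and Tnnt1, the next highest, 10.50, so the mutant sums mainly follow Myl1. Actc1, Myog and Myh8 were above background on only 2, 1 and 3 of the 10 controls. Control 10 was the highest control on each of the 6 markers. It read 13.09 for Myl1 and 9.24 for Actc1, against medians of 9.04 and 4.97 over all controls. Of 6 progenitor markers 3 rose and of 4 macrophage markers 3 rose. Sox2 and Adgre1, counted as not called, each had another probe that was called higher (0.85 and 0.30). Of pituicyte and glial markers 1 of 3 rose and 0 fell, by 1 probe per gene. For Aldh1l1, counted as not called, 2 of its 3 tested probes were called lower (down to -0.98), and without control 10 the list had 1 gene lower. None of 4 endothelial, 6 mesenchymal and 2 erythroid markers was called. Of the erythroid markers, Hba-a1 read 15.47 on all 6 mutants (SD 0). Its control median and highest control were also 15.47, so a rise of Hba-a1 might not be seen. The part of these cell types in the falls of the vesicle and SNARE genes was not tested.

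Likeness of profile was measured as the root mean square difference between log2 levels over the 16 arrays, each gene centred on its own mean, among the 9682 genes. The gene most like Syp was Syn1 (0.16) and the gene most like Syn1 was Syp (0.16). Next came Ccdc184 for Syp (0.18), which changed by -1.70, and Lrrc24 for Syn1 (0.19), which changed by -2.01. Nearest to Sv2a were AW551984 (0.19), which changed by -1.41, and Igsf1 (0.20), which changed by -1.53. Nearest to Stx1a were Fbxl15 (0.13) and Elovl6 (0.13), and nearest to Vamp2 were Bbs4 (0.11) and Ccdc126 (0.11). These differences include the genotype change itself, and a gene with a small change has many near neighbours. Among the members the difference between Sv2a and Syp was 0.33, and that between Syn1 and Vamp2 was the largest, at 0.77.

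**Figure D4:**
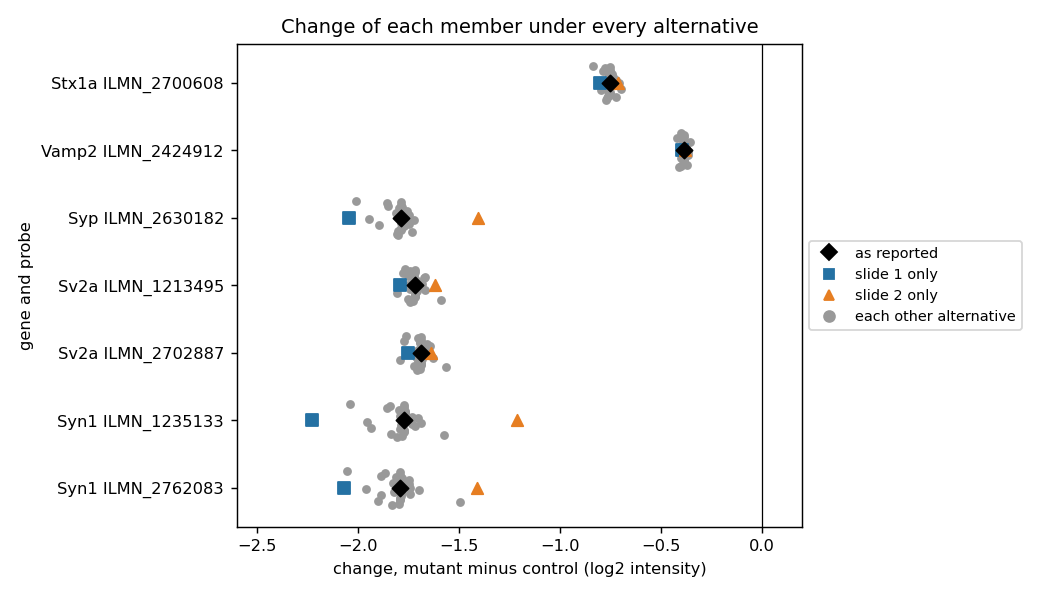
Change of each tested member probe in log2 intensity, mutant minus control, as reported (diamond), within slide 1 (square), within slide 2 (triangle) and under each other alternative (grey points). Every value lies below 0, and the slides stand furthest apart for Syn1 and Syp.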

How the data were processed

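Pituitary RNA of 6 mutant and 10 control samples was hybridised to 1 array each. Groups and replicate numbers come from the sample titles. The slide was inferred from the number that opens each sample name, and the labels do not call that number a slide. The deposited raw table gives each probe on each array an average signal intensity and a detection p-value, per the file headers. The submitters' processing notes name GenomeStudio without a version. The authors call the raw table non-normalised, and no step by the authors between scanner and deposit is stated in the sources used here. The deposited series matrix holds a second intensity set on a linear scale, read from its values as background-subtracted and quantile-normalised; it served as an alternative, as log2 with a floor of 16.

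Signals were corrected with limma's nec (offset 16), quantile-normalised and log2-transformed (R 4.3.3 with limma 3.58.1). Probes with a detection p under 0.01 on at least 6 arrays were kept (13813). Genotype was the only term of the limma fit (lmFit, eBayes), with Benjamini-Hochberg adjustment over all kept probes and a threshold of 0.05. A gene is represented by its kept probe with the highest mean. Probes were named by the platform annotation (23978 with 1 symbol, 0 with several, 1719 unnamed here), and 23962 matched RefSeq (GRCm38.p6), which changed 0 symbols. A simulation of mutants against controls over 13813 probes used independent normal noise and 50 changed probes of each size. There limma recovered 26 of 50 changes of 0.4, 41 of 50 of 0.8, and 50 of 50 each of 1.8 and 3 (log2), with 12 false calls. Far fewer probes were changed than the 27.8% called in these data, so these recoveries need not hold here. No arrays were identical (highest correlation 0.993). The number of arrays limits the precision.

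The members, lists and tests were chosen with earlier results of these data known. The text names every member by every probe; of each related list the 3 genes with the smallest adjusted p and called genes that moved against most of the list; 3 neuron markers; and the 2 genes most like each called member. Alternatives covered background, normalisation, filter, slide, single arrays, variance model, array weights, threshold and a block by replicate number; leaving out mutant 5 and control 10 together was added after seeing the data. Of the 7 members, 5 matched the RefSeq promoter table, and Sv2c was left out as it has no tested probe.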

Additional observations from a re-analysis of the deposited data

Results flagged for a closer look

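Of 16 groups of readings of the member probes, 2 held an array whose distance from its nearest neighbour was large for the range of the group by Dixon's test, which chance does in about 1 of 20 groups. Mutant 5 read 10.88 for Syp, and the next highest mutant 10.09. Without mutant 5 the Syp change was -1.95 (limma adjusted p = 8.13e-09). Control 10 read 9.66 for Sv2a on ILMN_2702887, and the next lowest control 10.29. Without control 10 that change was -1.77 (limma adjusted p = 3.48e-10).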

How the results depend on the processing

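Each of the 7 tested member probes was refitted under 31 alternatives. Of these 217 values, 216 kept their direction and their side of the threshold and 0 changed direction. The exception was Vamp2 within slide 2 (-0.38, limma adjusted p = 0.175), where fewer arrays were fitted. The alternatives of filter, variance model and threshold leave each change as it was, so only the calls could move there. Fits without a single array share all other arrays with the main fit, so these values are not independent checks. All 7 probes and 5 genes were called lower under every alternative run except slide 2 alone, where 6 probes and 4 genes were. Leaving out single arrays moved Syp between -1.95 and -1.72, Syn1 on ILMN_1235133 between -1.95 and -1.69, Sv2a on ILMN_1213495 between -1.78 and -1.67, Stx1a between -0.80 and -0.70 and Vamp2 between -0.42 and -0.35. Over all 13813 probes, 3845 were called, with 2349 on slide 1 alone and 961 on slide 2 alone, which have fewer arrays, and 2417 at an adjusted p under 0.01. A block by replicate number, over the 6 numbers that both groups hold, called 7 member probes and 3989 probes in all. Deviations of samples with the same number correlated by 0.040 to 0.48. Mutants 1, 2, 4 and 6 were closest to the control of the same number, mutant 3 to control 4 and mutant 5 to control 8. By the letters that end the sample names, mutants 1 to 4 each stood next to the control of the same number. For those samples, position and number cannot be told apart. The sample titles do not call samples of the same number pairs, so the main fit leaves them unpaired. Whether they are pairs is not settled here, and the block by replicate number gives the result if they are. Signal limits Snap25, whose probe was at background on all arrays.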
